A study of Homo sapiens with 20 samples.

Results

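Nonsense-mediated mRNA decay removes transcripts that carry a premature stop codon. The 9 genes UPF1, UPF2, UPF3A, UPF3B, SMG1, SMG5, SMG6, SMG8 and SMG9 encode factors of this pathway and were chosen by name. Of these 9 genes, 5 had a listed splicing event in HEK293T cells and 4 had none, among 7112 gene symbols with an event in any of 7 tables. HEK293T is a transformed human embryonic kidney line. The study set out to relate the kinase Aurora-A to regulators of splicing.

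The groups were cells given the Aurora-A inhibitor MLN8237 for 24 hours, with DMSO as control, and cells transfected with siRNA for 48 hours. The siRNAs targeted SRSF1 (siSRSF1), SRSF2 (siSRSF2), SRSF7 (siSRSF7) or SF3B5 (siSF3B5), with the non-targeting siNT1 as control, or SRSF3 (siSRSF3) or RBM39 (siRBM39), with the non-targeting siNT2 as control. Each of the 10 groups had 2 samples, 20 in all, of polyA RNA sequenced from stranded libraries. SRSF1, SRSF2, SRSF3 and SRSF7 are SR proteins, which bind exons and promote their splicing, RBM39 is a splicing factor related to U2AF, and SF3B5 belongs to SF3b, the part of the U2 particle that binds the branch point of introns. The values are the authors' group means of percent spliced in (PSI), the percent of a gene's transcripts that include a segment. They carry no replicate error here, the read depth behind them is unknown, and the labels do not state if replicates were grown separately. The group means of every listed event differ by more than 15 percentage points, the smallest difference in any table being 15.005. The full rule of selection is not known here. A gene without an event may have changed less, may not have been measurable or may have failed another criterion. Gene expression, the efficiency of each depletion included, was not analysed here.

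In the pathway, UPF1 is an RNA helicase that is recruited when a ribosome terminates early. UPF2 bridges UPF1 to UPF3B or its paralogue UPF3A, which contact the exon junction complex left on mRNA by splicing. The kinase SMG1, held in check by SMG8 and SMG9, phosphorylates UPF1. Phosphorylated UPF1 is then bound by SMG6, which cuts the mRNA, and by SMG5, an adaptor for further decay enzymes. The mRNAs of several of these factors are known to be substrates of the pathway themselves.

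The exons below are shown because their inclusion was lower in depleted cells, or, for UPF1, because the annotation holds a pair of 5' splice sites in it. The deposited tables give no positions, so the exons of SMG1, SMG5 and UPF3B were placed by length on GENCODE 29 transcripts (GRCh38), where each was the gene's single annotated exon of that length. The UPF1 exon was placed by that annotated pair of sites. All these placements are matches by annotation, and the exon numbers, codons and stop codons given below rest on them. All lie in coding sequence, no other annotated gene overlaps the placed exons of SMG1, SMG5 and UPF3B, and none of their 31-base words occurs in an annotated transcript of another gene. In the UPF1 exon (chr19:18852987-18853104, plus strand), capitals mark the 33 bases between the inner and the outer 5' splice site. SMG1 exon 45 is at chr16:18838014-18838232, SMG1 exon 52 at chr16:18830219-18830369, SMG5 exon 11 at chr1:156266541-156266678 and UPF3B exon 6 at chrX:119841735-119841778, all on the minus strand and given 5′ to 3′ as transcribed.
UPF1 exon 7: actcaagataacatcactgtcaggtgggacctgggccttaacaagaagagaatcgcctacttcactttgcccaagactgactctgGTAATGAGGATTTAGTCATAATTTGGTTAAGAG
UPF3B exon 6: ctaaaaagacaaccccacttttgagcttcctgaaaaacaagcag
SMG1 exon 45: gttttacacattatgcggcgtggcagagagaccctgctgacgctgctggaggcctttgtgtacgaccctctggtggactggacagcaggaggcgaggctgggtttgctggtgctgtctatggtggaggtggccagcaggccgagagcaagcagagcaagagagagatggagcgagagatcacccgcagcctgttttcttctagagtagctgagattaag
SMG1 exon 52: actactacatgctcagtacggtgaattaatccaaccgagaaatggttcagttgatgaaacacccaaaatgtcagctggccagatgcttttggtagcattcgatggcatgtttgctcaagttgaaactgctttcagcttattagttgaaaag
SMG5 exon 11: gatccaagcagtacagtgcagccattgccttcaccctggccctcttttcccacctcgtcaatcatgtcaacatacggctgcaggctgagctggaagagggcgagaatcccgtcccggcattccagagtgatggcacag

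The decay factors had 13 listings of 10 distinct events, and 3 of these events were listed for more than one depletion. Over all genes, the 6 depletion tables held 26598 listings of 19162 distinct events, so events recurred there too. The share of all events listed more than once was not computed. MLN8237 had none of the 13 listings: 0 of the 9 genes had an event, in a table that lists 0.848% of all annotated protein-coding genes. One gene was listed for siSRSF1 (UPF1), against 7.66% of all protein-coding genes, and 1 for siSRSF7 (UPF1 again), against 6.69%. The siSRSF2 table held 2 of the 9 (SMG1 and UPF3A), against 9.21%. The siSRSF3 table held SMG5, against 13.3%, and the siRBM39 table held SMG1, against 12.3%. The siSF3B5 table held 4 of the 9 (UPF1, UPF3B, SMG1 and SMG5), against 24.6% of all protein-coding genes and 39.6% of those with at least 10 exons. Over all tables, 5 of the 9 factors had an event, against 33.9% of protein-coding genes, and 5 of the 8 factors with at least 10 exons, against 51.6% of such genes. These percentages count all annotated genes, expressed or not, and no test was made on the 9 genes.

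**Figure D1:**
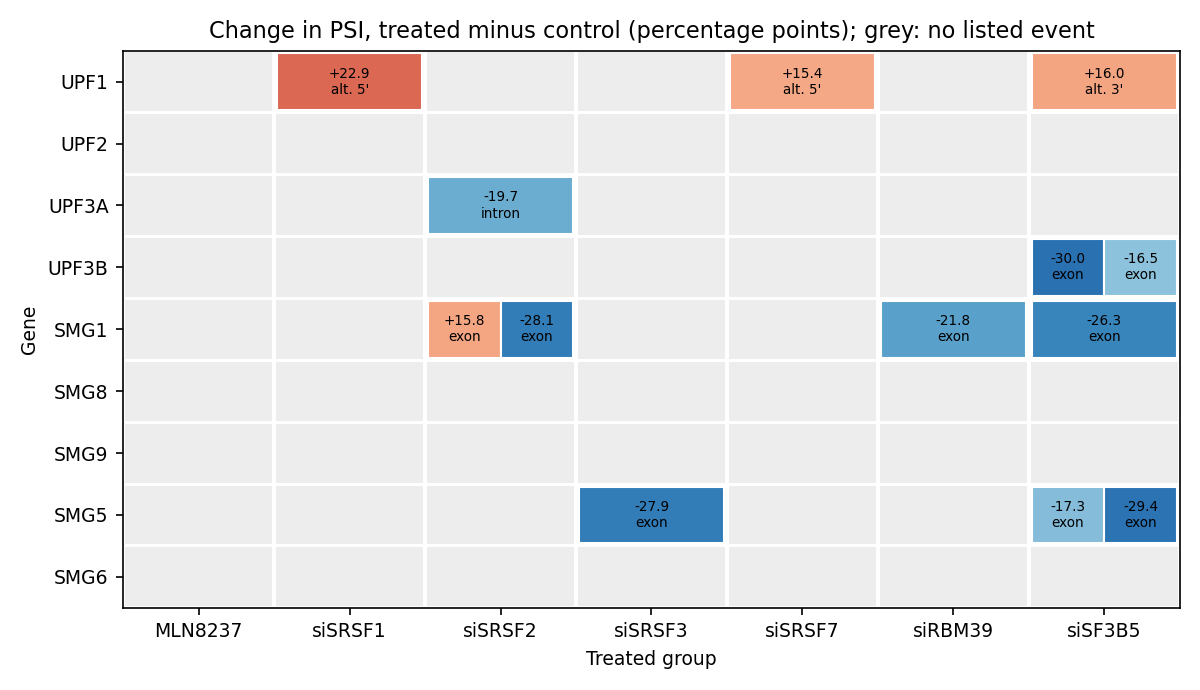
Change in PSI (treated minus control, percentage points) of every listed event, by gene (rows) and treated group (columns). Blue is lower and red is higher in the treated group, cells with 2 events are split, and grey marks no listed event. MLN8237 and the rows of UPF2, SMG6, SMG8 and SMG9 are empty, and siSF3B5 holds 6 of the 13 listings.

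UPF1, the helicase at the centre of the pathway, changed in its choice of splice sites and in no listed exon. An alternative 5' splice site that adds no bases, the inner of a pair, had a mean PSI of 97.7% in siSRSF1 cells, against 74.7% in siNT1 cells, a difference of 22.9 points. The same site was at 90.1% in siSRSF7 cells, against the same 74.7% in siNT1 cells, a difference of 15.4 points. Of these listed groups, siSRSF1 had the higher inner-site use, both comparisons rest on the same siNT1 samples, and the site is not listed for any other treated group, so its level there is unknown. The siSRSF7 difference is the smallest of all 13 listings and lies close to the 15 points that all listed differences exceed.

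Coding transcripts of UPF1 have 1 annotated pair of 5' splice sites that share an upstream 3' splice site, both in exon 7 of 24. A further pair, 328 bases apart, appears once non-coding transcripts are included, so the placement of the event in exon 7 is a match by annotation and is not given by the tables. The outer site of exon 7 makes the exon 118 bases long in place of 85 and adds 11 codons without a change of frame, the capitals in the UPF1 sequence above. The corresponding isoforms are known to differ in the length of a regulatory loop in the helicase domain. In siSF3B5 cells a different event was listed, an alternative 3' splice site that adds 199 bases, at 16.3% against 0.33% in siNT1 cells. That site was almost unused in the control, no pair of annotated UPF1 3' splice sites lies 199 bases apart, and 199 is not a multiple of 3. All alternative splice sites in the 7 tables are listed as higher, so a rise of a listed site is no result in itself. The direction lies in which site of an event is listed, the one used more in the treated group.

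UPF3A, which in several systems acts as a weak activator or an antagonist of decay beside UPF3B, had a single event, a retained intron. Its 3358-base intron had a mean PSI of 4.1% in siSRSF2 cells, against 23.8% in siNT1 cells, a difference of -19.7 points, so it was more often spliced out after SRSF2 depletion. Lower retention was the less common direction in this table, with 20.6% of listed introns lower. One UPF3A intron of that length is annotated, intron 3 at chr13:114282944-114286301 on the plus strand, between exons 3 and 4. Exon 4, of 99 bases, is absent from a shorter coding UPF3A transcript in the annotation. UPF3A has 3 annotated pseudogenes, and 100% of the 31-base words of exon 3 and 0% of those of exon 4 occur in their transcripts, so reads of exon 3 may not be assigned with certainty and the value is uncertain.

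UPF3B, the X-linked paralogue that links UPF2 to the exon junction complex, had 2 events, both exons and both in siSF3B5 cells. A 44-base exon was at 69.2% in siSF3B5 cells, against 99.2% in siNT1 cells. The difference of -30.0 points was the largest of any decay factor here. A 107-base exon was at 83.5% in siSF3B5 cells, against 100% in siNT1 cells, a difference of -16.5 points. Both exons were included in nearly all control transcripts and were skipped in a minority of transcripts after depletion. The 44-base exon is exon 6 of 11, whereas UPF3B has 3 annotated exons of 107 bases, among them exons 2 and 3, so the second event was not placed.

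Exon 6 of UPF3B covers codons 194 to 208 of 483, and 44 is not a multiple of 3. In a transcript that differs only by its absence, the reading frame would meet a stop codon after 249 codons, 508 bases upstream of the last exon junction. By the textbook rule, a stop more than about 50 bases upstream of the last junction marks a transcript for decay. The joined sequence is shown from 24 bases before the junction to the new stop codon, which is in capitals.
UPF3B junction without exon 6: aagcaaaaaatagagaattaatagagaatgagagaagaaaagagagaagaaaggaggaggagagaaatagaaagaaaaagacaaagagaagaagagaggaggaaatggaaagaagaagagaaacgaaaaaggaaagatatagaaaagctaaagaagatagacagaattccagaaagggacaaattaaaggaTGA

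SMG1, the kinase that phosphorylates UPF1, had the most events of any decay factor, with 3 exons in 4 listings. A 151-base exon was listed in separate sample sets. Its mean PSI was 74.9% in siRBM39 cells, against 96.7% in siNT2 cells, a difference of -21.8 points. In siSF3B5 cells it was at 70.0%, against 96.2% in siNT1 cells, a difference of -26.3 points. The control groups of the 2 sets thus differed by 0.42 points for this exon, and both depleted groups lay more than 20 points below their own control. This is exon 52 of 63, which covers codons 2931 to 2981 of 3661. In a transcript that differs only by its absence, the frame would meet a TGA stop 1 base after the junction, after 2931 codons and 1961 bases upstream of the last junction. The joined sequence is shown from 24 bases before the junction, with the stop in capitals.
SMG1 junction without exon 52: tgctcattacatcgatgttgccagtTGA

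The other SMG1 exons were listed for siSRSF2. A 219-base exon was at 71.9% in siSRSF2 cells, against 100% in siNT1 cells, a difference of -28.1 points. It is exon 45, which covers codons 2399 to 2471, and its skipping keeps the frame and leaves 3588 of 3661 codons. A 58-base exon went the other way, at 57.6% in siSRSF2 cells against 41.8% in siNT1 cells, and was the single decay factor exon with higher inclusion. It is not part of the main coding transcript. Its 1 annotated position, chr16:18899987-18900044 on the minus strand, lies between exons 1 and 2 of that transcript.

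SMG1 has 7 annotated pseudogenes. Annotated transcripts of other genes hold 20.6% of the 31-base words within SMG1 exons, and the 22 exons that share more than 50% of their words lie between exons 1 and 28. Exons 45 and 52 and the exons next to them share none. The 58-base exon itself shares none, but its neighbours do, with 52.6% for exon 1 and 56.7% for exon 2. Its value is therefore less certain than those of exons 45 and 52.

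SMG5, the adaptor that binds phosphorylated UPF1, had 2 exons in 3 listings. A 130-base exon was at 67.8% in siSRSF3 cells, against 95.7% in siNT2 cells, a difference of -27.9 points. The same exon was at 76.5% in siSF3B5 cells, against 93.8% in siNT1 cells, a difference of -17.3 points. The controls differed by 1.90 points, and the exon was lower in both depleted groups. Whether the drop differed between the depletions was not tested. GENCODE 29 annotates no SMG5 exon of 130 bases, so this exon has no position or sequence here, and its length is not a multiple of 3. A 138-base exon was at 66.1% in siSF3B5 cells, against 95.6% in siNT1 cells, a difference of -29.4 points. This is exon 11 of 22, which covers codons 373 to 419, and its skipping keeps the frame and leaves 970 of 1016 codons.

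**Figure D2:**
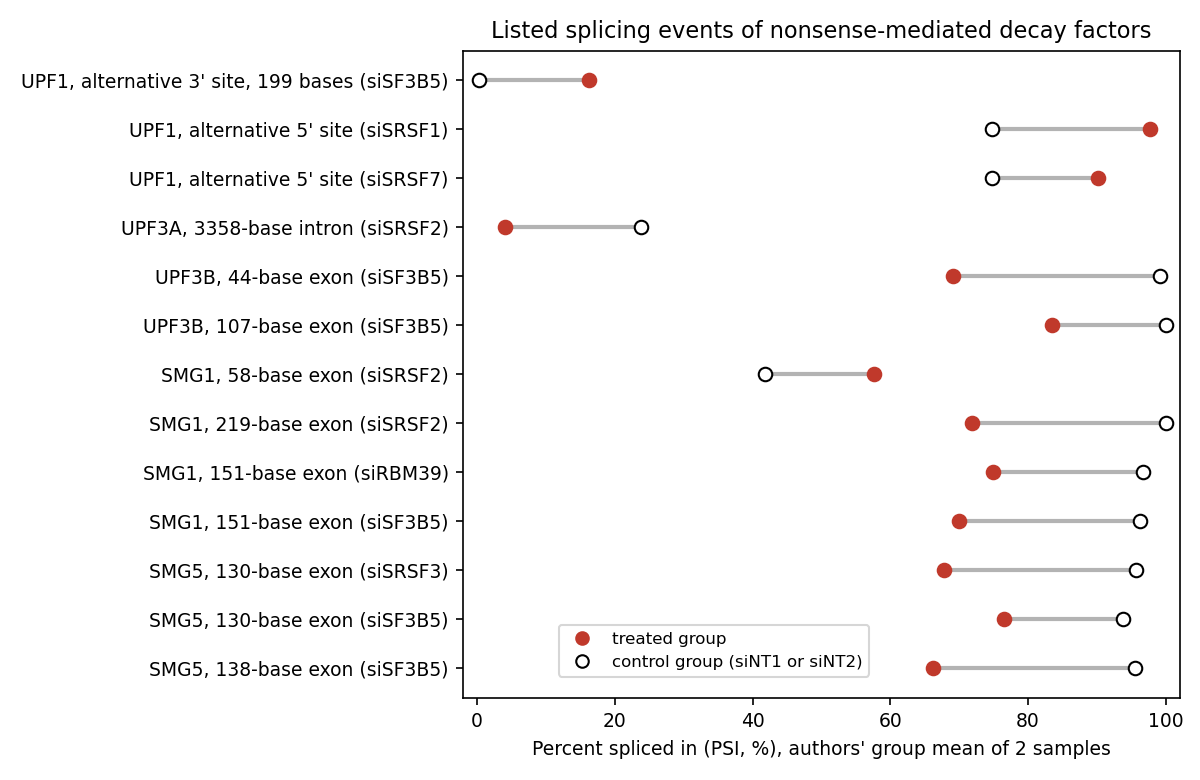
Mean PSI in percent of every listed event of a decay factor, with the treated group as a red point and its control group as an open point, each a mean of 2 samples by the authors without an error. The exons of UPF3B and SMG5 and the longer exons of SMG1 lie between 93.8% and 100% in the controls and between 66.1% and 83.5% in the treated groups, while the UPF3A intron and the UPF1 sites lie elsewhere on the scale.

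**Figure D3:**
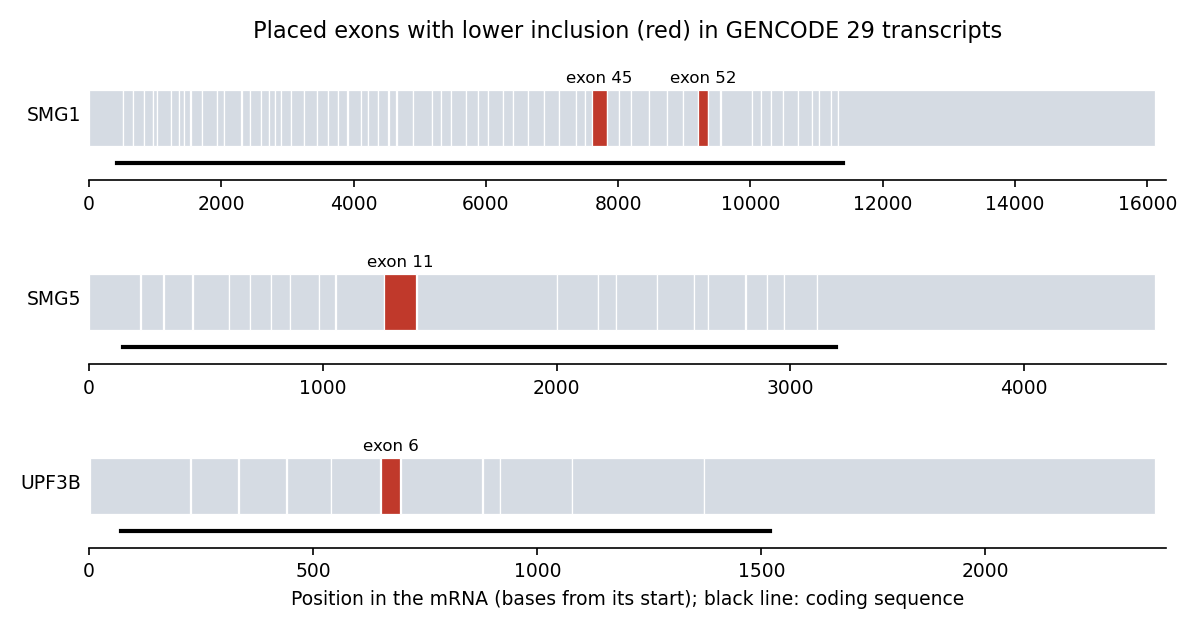
Exons of the main coding transcripts of SMG1 (63 exons), SMG5 (22) and UPF3B (11), to scale in bases from the start of the mRNA, with the placed exons of lower inclusion in red and the coding sequence as a black line. All 4 placed exons lie inside the coding sequence, and those of SMG5 and UPF3B lie in its first part.

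Across the 6 depletions, 8 of 9 decay factor exon listings were lower, against 87.6% lower among all exons listed. In siSF3B5 cells 5 of 5 were lower, against 97.9% of all exons in that table. The remaining listings were 1 of 1 lower for siSRSF3, against 80.9%, 1 of 1 lower for siRBM39, against 89.3%, and 1 of 2 lower for siSRSF2, against 73.5%. The direction of the decay factor exons was thus near that of all listed exons. No exon of a decay factor was listed for siSRSF1 or siSRSF7, where 62.6% and 78.5% of all listed exons were lower, or for MLN8237, where 48.8% were. The control PSI was at least 93.8% in the 8 lower listings, a level from which a rise of more than 15 points is not possible. Once listed, these exons could therefore only be lower.

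The 8 lower listings fell by 16.5 to 30.0 points and represent 6 distinct exons. As a yardstick that does not replace replicate error, the siNT1 and siNT2 groups were compared over 1070 exons listed in both sets with at least 90% in siNT1. Their means differed there by a median of 1.28 points, with a 90th percentile of 3.93 points. That choice of exons, by listing and by a high siNT1 level, limits how far the means can differ. Over all 3392 events listed in both sets, the median was 2.715 points and the 90th percentile 10.0 points. The lengths of 4 of the 6 exons were not multiples of 3, against 59.0% of the 13376 distinct exons that were lower after any depletion. PSI describes the RNA present at lysis, and the decay of single isoforms was not measured.

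The changes were of ordinary size for their tables. The median absolute change over the 13 listings was 21.8 points, against 23.2 points over all listings of the 6 depletion tables. The SMG1 219-base exon stood highest within its table, with a larger change than 70.6% of all siSRSF2 events, followed by the SMG5 130-base exon with 66.6% of siSRSF3 events and the UPF3B 44-base exon with 63.1% of siSF3B5 events. The UPF1 5' splice site exceeded 57.5% of siSRSF1 events and 4.92% of siSRSF7 events. The UPF1 3' splice site and the UPF3B 107-base exon exceeded 5.93% and 9.23% of siSF3B5 events, and the SMG1 58-base exon 7.74% of siSRSF2 events.

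**Figure D4:**
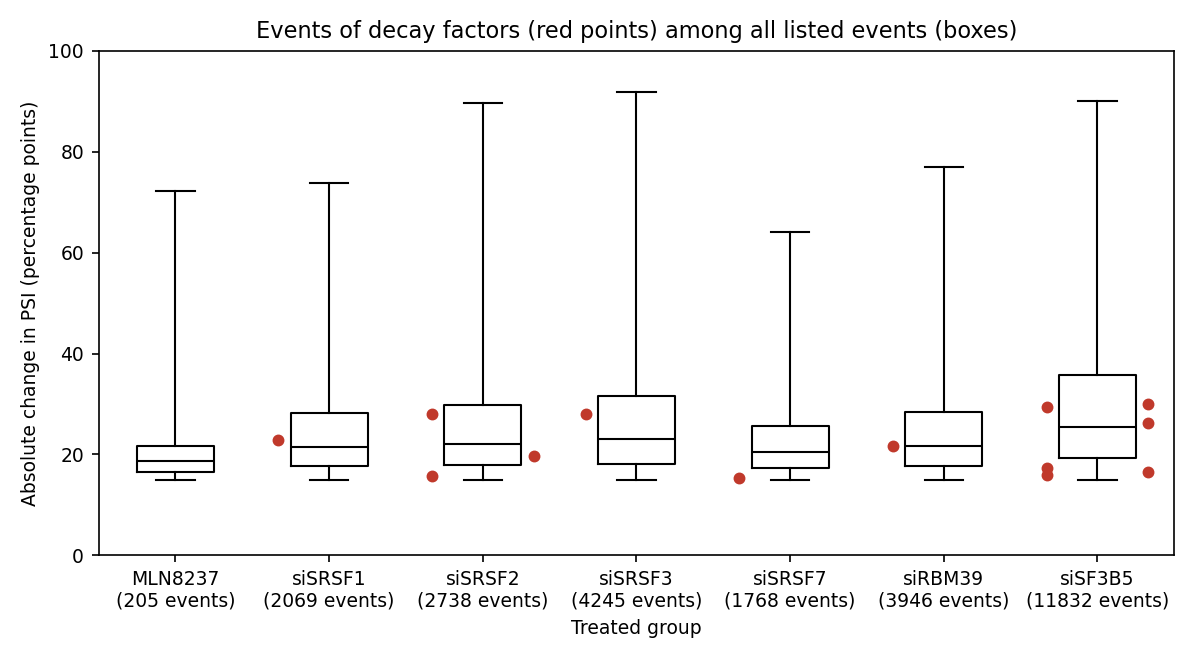
Absolute change in PSI (percentage points) of all events listed for each treated group, as boxes (median and quartiles, whiskers to the smallest and largest value), with events of decay factors as red points placed beside the box. All points lie between 15.4 and 30.0 points, well below the upper whiskers, and MLN8237 has no point.

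UPF2, SMG6, SMG8 and SMG9 had no event in any of the 7 tables. UPF2, the bridge between UPF1 and UPF3 proteins, has 22 exons in its main annotated transcript, and SMG6, the endonuclease, has 19. SMG9, one of the regulators of SMG1, has 14 exons, and SMG8, its partner, has 5. A search with their older symbols found no further event.

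The wider pathway was described with 33 other genes, of which 21 had an event after at least 1 depletion and none with MLN8237. In any table, the share was 33.9% of all protein-coding genes and 51.6% of those with at least 10 exons. The 33 genes were not split by exon number, and such percentages count all annotated genes, expressed or not. Events were found in 2 of 3 other decay factors, 4 of 7 genes of the exon junction complex and its partners, 5 of 7 genes of termination and cap binding, 7 of 11 genes of decapping, exonucleolytic decay and phosphatases, and 3 of 5 chaperones of SMG1. Of their 52 exon listings, 50 were lower, against 87.6% of all exons listed after a depletion. Of these, 36 were in siSF3B5 cells, where 97.9% of all listed exons were lower. The 52 listings were of 45 distinct exons, and some genes gave several exons each, XRN1, EIF4G1 and NBAS among them. The number of wider genes with an event was 17 of 33 for siSF3B5. The share there was 24.6% of all protein-coding genes and 39.6% of those with at least 10 exons. For siSRSF3 the number was 8, against 13.3% of all protein-coding genes. It was 4 each for siSRSF1 and siSRSF2, against 7.66% and 9.21%, and 1 each for siSRSF7 and siRBM39, against 6.69% and 12.3%. The median absolute change over the 64 listings was 22.4 points, against the 23.2 points over all genes.

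The largest changes in this wider group exceeded those in the 9 factors, but they were picked from 64 listings, against 13. A 109-base exon of XRN1, the 5′ to 3′ exonuclease that degrades the cut mRNA, was at 24.6% in siSF3B5 cells, against 98.4% in siNT1 cells. An 88-base alternative 3' splice site of PNRC2, an adaptor to decapping, was at 68.4% in siSRSF3 cells, against 1.85% in siNT2 cells. A 57-base exon of the translation factor EIF4G1 was at 31.02% in siSF3B5 cells, against 87.6% in siNT1 cells. Components of the exon junction complex followed, with a 111-base exon of MAGOH at 37.6% in siSF3B5 cells, against 79.3% in siNT1 cells, and a 215-base exon of CASC3 at 59.8% in siSRSF3 cells, against 99.9% in siNT2 cells. A 42-base exon of GSPT1, the release factor eRF3a, was at 61.2% in siSF3B5 cells, against 99.8% in siNT1 cells. Another listed GSPT1 exon event, also of 42 bases, fell less, to 84.0% in siSF3B5 cells, against 99.8% in siNT1 cells. No positions are given, so whether the GSPT1 events are separate exons is unknown.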

How the data were processed

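The members and the wider list were chosen with earlier results of these data known. The submitters' processing notes name cutadapt, Bowtie and hg38, without versions. The deposited tables are named for VAST-TOOLS; the rule by which events were selected is not given in the sources used here. Per the file headers, the authors deposited for each event a PSI value as a percent, averaged over each group. The deposited difference is a score in percentage points, and it equalled the treated minus control mean computed here from the PSI values. The control columns are headed with siNT alone; they were taken as siNT1 or siNT2 from the labels of each set, and the values of an event were identical across the tables of a set. Rows were selected by gene symbol with pandas 2.3.3 in Python 3.11.15, and event types were read from the identifiers. No test was made, because group means hold no replicate spread; in groups of 2 the smallest p of an exact permutation test (two-sided) is 0.333. Exons were placed on GENCODE 29 by length. The main transcript was the principal one, or the longest coding one. Stops were read from GENCODE transcript sequences with the exon removed. All members and, of the wider list, the 6 largest events with 1 per gene were named, besides another GSPT1 event of equal length. One gene of that list is not reported here and is in none of its counts. Alternatives covered a threshold of 25 points, introns left out, older symbols, control PSI from 20 to 80, and SMG1 left out.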

Additional observations from a re-analysis of the deposited data

How the results depend on the processing

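Counts of listed decay factor events are small and moved with the threshold. At changes of at least 25 points they were 0 for siSRSF1, siSRSF7 and siRBM39, against 1 each, 1 against 3 for siSRSF2 and 3 against 6 for siSF3B5. With a control PSI from 20 to 80 they were 0 for siSRSF3, siRBM39 and siSF3B5. With SMG1 left out, chosen after the data were seen, they were 1 for siSRSF2 and 0 for siRBM39. Lower exon listings numbered 5 in place of 8 at 25 points, 3 without the siSF3B5 table and 5 without SMG1. Introns left out and older symbols moved no count by over 1.5 times. No replicate could be left out, since the tables hold group means. No paired analysis was possible because the columns are group means that carry no replicate number.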
